A study of Homo sapiens with 35 samples.

Results

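The genes described are the 39 autosomal genes that U937 cells with a control guide RNA expressed and that yielded almost no reads in U937 cells labelled as lacking both SUV39H1 and SUV39H2. A gene was included when it reached 1 CPM (counts per the column total of counted reads, scaled as usual) in each of the 3 untreated control libraries and had no more than 5 reads summed over the 3 untreated double-knockout libraries. Of 11065 autosomal genes that met the first condition, among 56453 autosomal gene rows, 39 met both, which is 0.352%. These 6 libraries chose the genes, so their values are given as a description and without a test.

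The enzymes SUV39H1 and SUV39H2 trimethylate histone H3 at lysine 9. HP1 proteins bind that mark, which is a feature of constitutive heterochromatin, where it lies over repeats and transposable elements and accompanies silencing.

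Poly(A) RNA of 4 human acute myeloid leukaemia lines was sequenced in 35 libraries that fall into 13 groups. U937 and THP-1, lines with monocytic features, each had 3 libraries with a control guide (sgControl), 3 labelled SUV39H1 single knockout (SKO) and 3 labelled SUV39H1/2 double knockout (DKO), all untreated. U937 also had 3 libraries of each of these genotypes after a treatment called TPA, for which the labels give no dose or time. For OCI-AML-3 there were 2 sgControl and 2 DKO libraries, and for MOLM-13 there were 2 sgControl and 2 SKO libraries. SKO and DKO below stand for the libraries labelled so. The column names give clone number 3 for the untreated U937 DKO libraries, so these may be repeats of 1 clone. They give clone number 1 for THP-1 sgControl and SKO, and no clone number elsewhere, U937 under TPA included. The names of the untreated U937 and THP-1 columns give SUV39H1 guide 3 for SKO and DKO of both lines. They give SUV39H2 guide 3 for U937 DKO and SUV39H2 guide 1 for THP-1 DKO, so these differ in guide as well as line. No guide number is given for the other libraries. Within U937, genotype and clone cannot be told apart. The untreated U937 and THP-1 sgControl and SKO columns of each line carry 1 number code, the THP-1 DKO columns carry another and the U937 DKO columns carry none, so any set of libraries that these codes mark cannot be told apart from DKO. No source used here says whether replicates were grown separately, and the p-values therefore cover the spread among libraries only, part of which may be technical.

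Libraries held 31985767 to 61178704 counted reads. SUV39H1 RNA was not lower in untreated U937 SKO (109 ± 3.69 CPM, mean ± SD, n = 3) or DKO (85.7 ± 0.982) than in sgControl (65.6 ± 3.57), and SUV39H2 was at 42.5 ± 2.13 CPM in the controls against 34.5 ± 0.838 with SKO and 33.9 ± 2.38 with DKO. Under TPA, SUV39H1 averaged 38.4 CPM in the controls, 53.3 with SKO and 20.1 with DKO. In THP-1 it averaged 32.2 CPM in the controls, 88.9 with SKO and 62.4 with DKO. In OCI-AML-3 it averaged 39.8 CPM in the controls and 3.87 with DKO, and in MOLM-13 28.6 in the controls and 7.35 with SKO. RNA level does not report on the protein or on edits in the transcript. Of 12 myeloid markers, 9 were at 1 CPM or more in each untreated U937 group, with a summed level of 603 to 635 CPM in sgControl, 1150 to 1170 in SKO and 1340 to 1350 in DKO. HBA1 and HBB of the erythroid markers were at 0 reads in all 9 of these libraries.

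The promoter windows of 4 of the genes are shown because these genes differ in state, as described below. ONECUT2, IMPACT and ALCAM are 3 of the 4 genes with the highest control level and were nearly lost with either genotype, and IL2RA was lost in DKO but not in SKO. Each window runs from 250 bases before to 50 bases after the start of the RefSeq transcript (GRCh38.p14), 5′ to 3′ on the gene's strand, and capitals mark CpG dinucleotides. ONECUT2 is on the forward strand (chr18:57435124-57435423), as are IMPACT (chr18:24426420-24426719) and ALCAM (chr3:105366659-105366958), and IL2RA is on the reverse strand (chr10:6062318-6062617).
ONECUT2: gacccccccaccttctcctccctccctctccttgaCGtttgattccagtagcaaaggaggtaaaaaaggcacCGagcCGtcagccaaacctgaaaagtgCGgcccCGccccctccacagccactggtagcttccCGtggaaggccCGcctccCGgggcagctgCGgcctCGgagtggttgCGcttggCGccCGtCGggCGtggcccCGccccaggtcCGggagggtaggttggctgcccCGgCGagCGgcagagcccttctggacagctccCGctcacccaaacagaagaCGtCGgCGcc
IMPACT: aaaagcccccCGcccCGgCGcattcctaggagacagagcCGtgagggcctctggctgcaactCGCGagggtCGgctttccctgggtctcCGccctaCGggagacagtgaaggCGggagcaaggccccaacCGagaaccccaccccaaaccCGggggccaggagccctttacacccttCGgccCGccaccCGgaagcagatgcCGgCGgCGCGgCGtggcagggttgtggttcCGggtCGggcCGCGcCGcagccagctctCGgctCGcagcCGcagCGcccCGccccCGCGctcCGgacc
ALCAM: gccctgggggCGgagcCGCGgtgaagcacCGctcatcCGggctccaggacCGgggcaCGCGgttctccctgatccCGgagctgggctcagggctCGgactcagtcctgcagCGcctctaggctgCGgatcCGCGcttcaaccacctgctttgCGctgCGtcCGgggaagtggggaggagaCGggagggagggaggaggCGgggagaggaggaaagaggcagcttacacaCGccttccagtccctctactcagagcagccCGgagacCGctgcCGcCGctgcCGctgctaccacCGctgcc
IL2RA: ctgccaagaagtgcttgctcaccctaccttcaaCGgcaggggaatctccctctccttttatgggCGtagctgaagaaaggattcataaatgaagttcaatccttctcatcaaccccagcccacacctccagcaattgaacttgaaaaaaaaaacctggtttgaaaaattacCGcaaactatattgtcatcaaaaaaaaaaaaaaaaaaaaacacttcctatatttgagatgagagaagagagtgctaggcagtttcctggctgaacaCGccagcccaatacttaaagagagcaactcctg

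The first 3 windows hold 24, 33 and 26 CpG and the IL2RA window holds 4. These 4 windows do not stand for the other genes. ADAM19, which like IL2RA averaged 1 CPM or more in SKO, had 26 CpG in its window. GLI3 and PSPHP1, which did so too, had no matched window. TRIM68, at 0.0357 CPM in SKO, had 15 CpG. Whether CpG number goes with the state in SKO was not tested. RefSeq promoter windows were matched for 31 of the 39 genes, and 26 of these (83.9%) had a ratio of observed to expected CpG of at least 0.6, against 85.6% of 8556 other expressed genes and 49% of all 27305 windows.  The median ratio was 0.786 against 0.855 in other expressed genes, and at a limit of 0.75 the shares were 54.8% and 71.2%. The lowest ratios were those of OSBPL1A (0.252), IL2RA (0.316) and TRIM68 (0.557), and the highest was that of TMEM132E (1.16). The OSBPL1A, SHTN1 and ZNF541 windows start 86374, 121399 and 17292 bases from the gene start in the count file, so they belong to other transcripts of those genes.

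The 39 genes were mostly expressed at low levels in the controls. Their mean control level ranged from 1.095 to 37.53 CPM with a median of 2.432, and that of other expressed genes had a median of 31.29. The limit in DKO is an absolute number of reads, which genes with low control levels meet more easily. The rule therefore sets this difference at least in part. In the untreated DKO libraries 19 of the 39 had no read in any library, 1 had 1 read, 16 had 2 and 3 had 4. Reads of a pair were counted singly, and 19 of the 23 library values above 0 were exactly 2 reads. Over these 3 libraries the limit of 5 reads corresponds to 0.0482 CPM and a floor of 3 reads to 0.0289 CPM. Per kilobase of exon, PSPHP1 (10.16 RPKM, CPM per kilobase of exon), IMPACT (4.732), OSBPL1A (2.593) and RP11-43F13.3 (2.57) had the highest control levels, and SLITRK5 (0.06687) the lowest.

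ZNF541, ZNF264 and TERT lay just inside the expression limit, with a lowest control library at 1.01, 1.02 and 1.03 CPM. H2AJ (0.982), CTD-2339F6.1 (0.941) and RP11-747H12.8 (0.935) lay just outside it. SYN2, ALCAM and CLDN5 had 4 reads in DKO. SNX19, RP11-146I2.1, CDH3 and TGFB2 had 6, KIAA1217 had 7, and CTIF, ZNF827, BMERB1 and TBC1D30 had 8, and were left out.

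**Figure D1:**
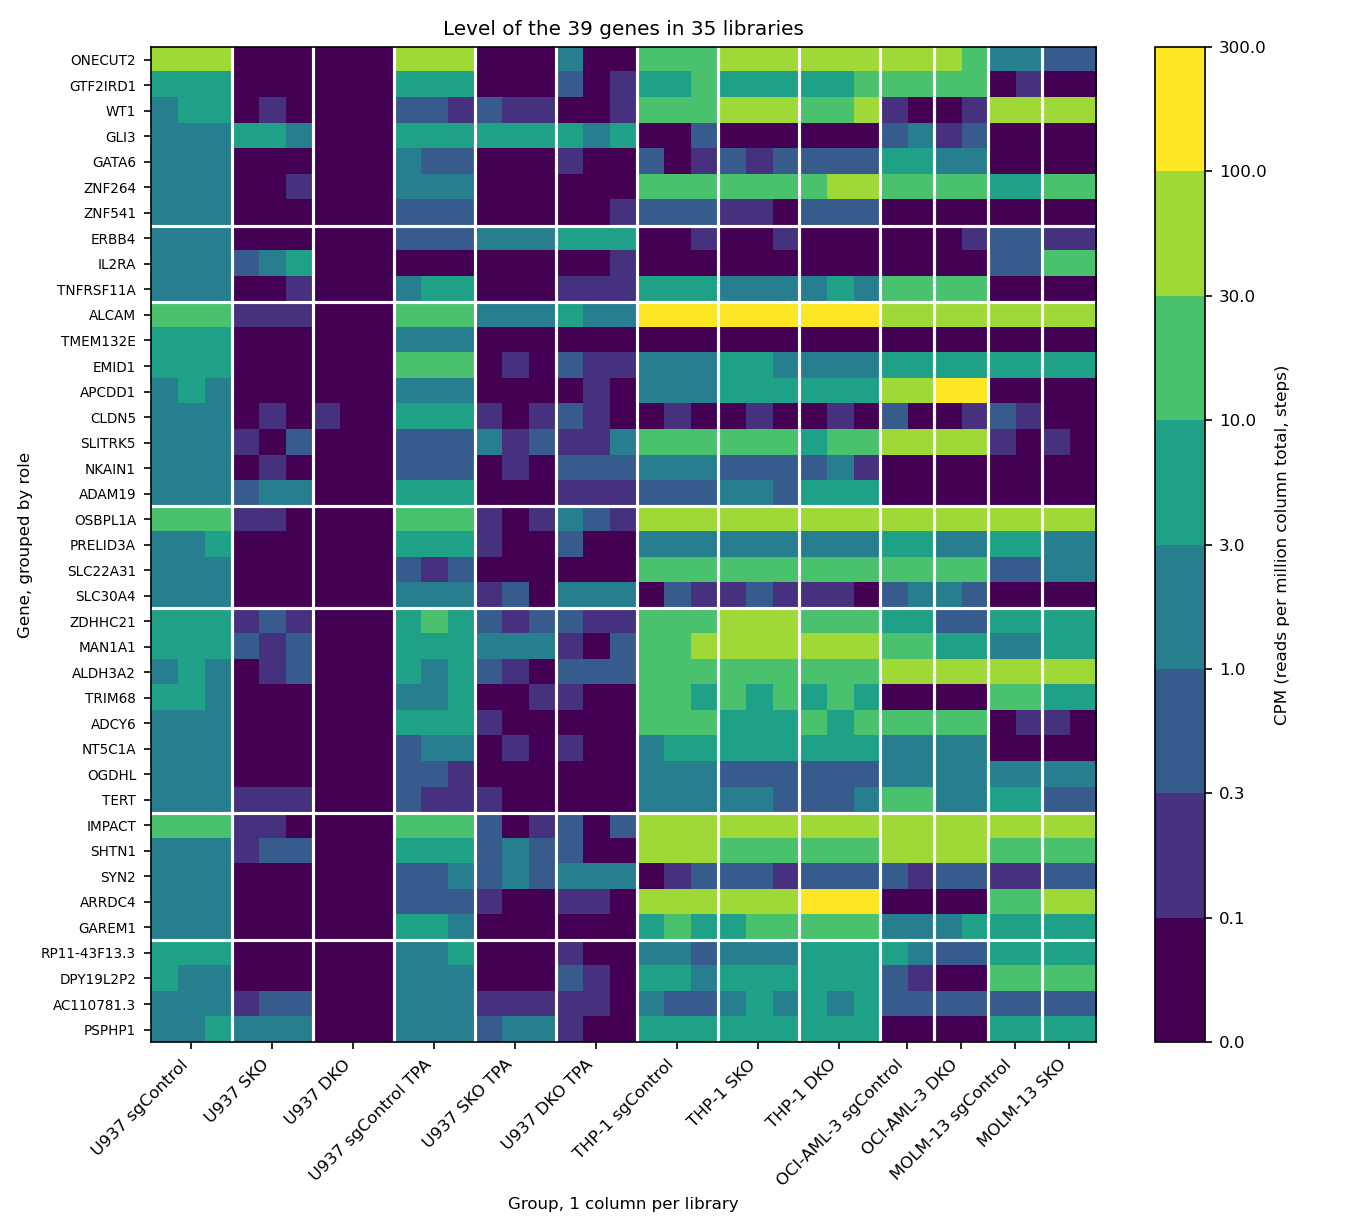
Level of the 39 genes (rows, grouped by role in the order transcription factor, receptor, adhesion or surface, transport, enzyme, intracellular regulator, non-coding or pseudogene) in the 35 libraries (columns, grouped), in CPM on a stepped colour scale. No untreated U937 DKO library exceeds 0.12 CPM (CLDN5), and 4 genes (GLI3, IL2RA, PSPHP1 and ADAM19) average 1 CPM or more in untreated U937 SKO.

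By role, the 39 genes comprised 7 transcription factors, 3 receptors, 8 adhesion or surface proteins, 4 proteins of transport or lipid transfer, 8 enzymes, 5 intracellular regulators and 4 non-coding genes or pseudogenes. RefSeq lists 35 as protein coding (89.7%, against 90.7% of the expressed genes), 2 as pseudogenes and 0 as long non-coding RNA, and 2 clone-named genes were not matched by symbol. There were 2 numbered zinc finger genes (5.13%, against 3.2% of expressed genes), 2 solute carriers (5.13% against 1.67%) and 1 homeobox gene (2.56% against 0.352%). None of the 39 belonged to the myeloid, lymphoid, erythroid, megakaryocyte, stromal, progenitor or mitochondrial lists, or to the list of H3K9 and DNA methylation machinery. Of the 22 genes of that machinery list, 22 stayed at 1 CPM or more in untreated U937 SKO and 21 in DKO.

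Among the transcription factors, ONECUT2, a cut-homeobox factor of liver and neural development, had the highest level of the 39 genes. It was at 33.9, 38.9 and 39.8 CPM in the 3 sgControl libraries, at 0.048, 0.0521 and 0 in SKO and at 0.0598, 0 and 0 in DKO. GTF2IRD1, a general transcription factor of the Williams-Beuren syndrome region, was at 4.54, 5.19 and 4.35 CPM in sgControl and at no more than 0.0544 CPM in any SKO or DKO library. WT1, the Wilms tumour zinc finger factor that is often expressed in acute leukaemia, was at 2.09, 3.09 and 3.11 CPM in sgControl, at 0, 0.104 and 0 in SKO and at 0 in all DKO libraries. The SKO libraries of these 3 genes did not overlap the controls, and for DKO the rule fixes this for all 39. GATA6, a zinc finger factor of endoderm and heart, had 156 reads over the sgControl libraries and 0 over the SKO and the DKO libraries. ZNF264 and ZNF541, zinc finger genes, had 169 and 145 reads in sgControl, 4 and 0 in SKO and 0 and 1 in DKO. GLI3, a zinc finger effector of Hedgehog signalling, differed from these, since it was at 1.67, 2.76 and 2.15 CPM in sgControl and at 3.46, 3.33 and 2.51 in SKO, ranges that overlap, and at 0, 0 and 0.0598 in DKO.

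The receptors were IL2RA, the high-affinity alpha chain of the interleukin-2 receptor, TNFRSF11A, the receptor (RANK) for the osteoclast factor RANKL, and ERBB4, a receptor tyrosine kinase of the EGF receptor family. IL2RA was at 1.6, 1.33 and 1.95 CPM in sgControl, at 0.96, 2.45 and 4.16 in SKO and at 0 in all 3 DKO libraries. The SKO libraries overlapped the controls and spread over a wider range. TNFRSF11A was at 1.69, 1.08 and 1.13 CPM in sgControl, 0, 0 and 0.118 in SKO and 0 in DKO. ERBB4 was at 1.53, 1.43 and 1.89 CPM in sgControl, 0, 0.0521 and 0 in SKO and 0, 0.0544 and 0 in DKO.

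ALCAM, an immunoglobulin-family cell adhesion molecule, was the highest of the surface proteins at 16.6, 17 and 15.7 CPM in sgControl. It was at 0.192, 0.156 and 0.118 CPM in SKO and at 0, 0.0544 and 0.0598 in DKO, so that SKO lay above DKO and far below the controls. TMEM132E, a transmembrane protein known from hearing loss, was at 9.01, 7.85 and 8.19 CPM in sgControl and had no read in any SKO or DKO library. EMID1, a secreted protein with an EMI domain, was at 9.38, 6.75 and 7.91 CPM in sgControl, 0, 0.0521 and 0 in SKO and 0 in DKO. APCDD1, an inhibitor of Wnt signalling, had 339 reads in sgControl and 0 in both SKO and DKO. CLDN5, a tight-junction claudin of endothelium, NKAIN1, which interacts with the sodium pump, and SLITRK5, a synaptic adhesion protein, were at 2.44, 1.54 and 1.47 CPM on average in sgControl and at 0.0507, 0.0815 and 0.231 in SKO. ADAM19, a membrane metalloprotease, had 1.1 ± 0.0296 CPM in sgControl (n = 3), 1.38 ± 0.557 in SKO and 0.0199 ± 0.0345 in DKO.

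Of the transport and lipid transfer genes, OSBPL1A, an oxysterol-binding protein of endosomes, was at 19.6, 21.5 and 21.4 CPM in sgControl. Its SKO libraries were at 0.12, 0.104 and 0.059 CPM and did not overlap the controls. Its DKO libraries were at 0, 0 and 0.0598. PRELID3A, of a family of mitochondrial phospholipid transfer proteins, was at 2.96, 2.78 and 3.02 CPM in sgControl, 0, 0 and 0.059 in SKO and 0 in DKO. SLC22A31, of the organic ion transporter family, and SLC30A4, a zinc transporter, had 219 and 174 reads in sgControl and no more than 4 in SKO or DKO.

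ZDHHC21, a palmitoyltransferase, was the highest of the enzymes at 5.6, 6.29 and 6.24 CPM in sgControl. It kept 0.144, 0.417 and 0.295 CPM in SKO and had no read in DKO. MAN1A1, a mannosidase that trims N-glycans in the Golgi, was at 3.81, 4.63 and 4.88 CPM in sgControl, 0.672, 0.208 and 0.767 in SKO and 0, 0 and 0.0598 in DKO. Both genes thus lay at intermediate levels in SKO, apart from the other 2 groups. TRIM68, a ubiquitin ligase, and ALDH3A2, the fatty aldehyde dehydrogenase, were at 3.2 and 2.75 CPM on average in sgControl and at 0.0357 and 0.227 in SKO. ADCY6, an adenylyl cyclase, NT5C1A, a cytosolic AMP nucleotidase, and OGDHL, a relative of 2-oxoglutarate dehydrogenase, had 192, 191 and 168 reads in sgControl and 1, 6 and 0 in SKO. TERT, the catalytic subunit of telomerase, was at 1.6, 1.03 and 1.33 CPM in sgControl, 0.144, 0.156 and 0.118 in SKO and 0, 0 and 0.0598 in DKO.

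The intracellular regulators were led by IMPACT, an inhibitor of the GCN2 kinase, at 22.1, 23.3 and 24.1 CPM in sgControl. It was at 0.144, 0.104 and 0.059 CPM in SKO and had no read in the DKO libraries. SHTN1, a protein of neuronal polarity, was at 2.73, 2.15 and 2.99 CPM in sgControl and 0.144, 0.417 and 0.826 in SKO. ARRDC4, an arrestin-domain protein, GAREM1, an adaptor of EGF receptor signalling, and SYN2, a synaptic vesicle protein, were at 1.58, 1.64 and 1.56 CPM on average in sgControl and at 0.037, 0 and 0.0517 in SKO. The non-coding and pseudogene group held RP11-43F13.3 (8.95 ± 0.215 CPM in sgControl, n = 3, and 0.016 ± 0.0277 in SKO), DPY19L2P2, AC110781.3 and PSPHP1. PSPHP1, a pseudogene of phosphoserine phosphatase, was at 2.47, 2.27 and 3.22 CPM in sgControl, 2.81, 2.16 and 2.54 in SKO and 0 in DKO. The counting command in the file header names no option for reads that map to several places. Whether reads of the parent gene are counted for this pseudogene was not examined. Exons of 13 of the 39 genes overlap exons of another gene, among them WT1 with WT1-AS and GATA6 with GATA6-AS1. Strand was not used in counting, so reads from the overlapping parts cannot be told apart by strand.

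**Figure D2:**
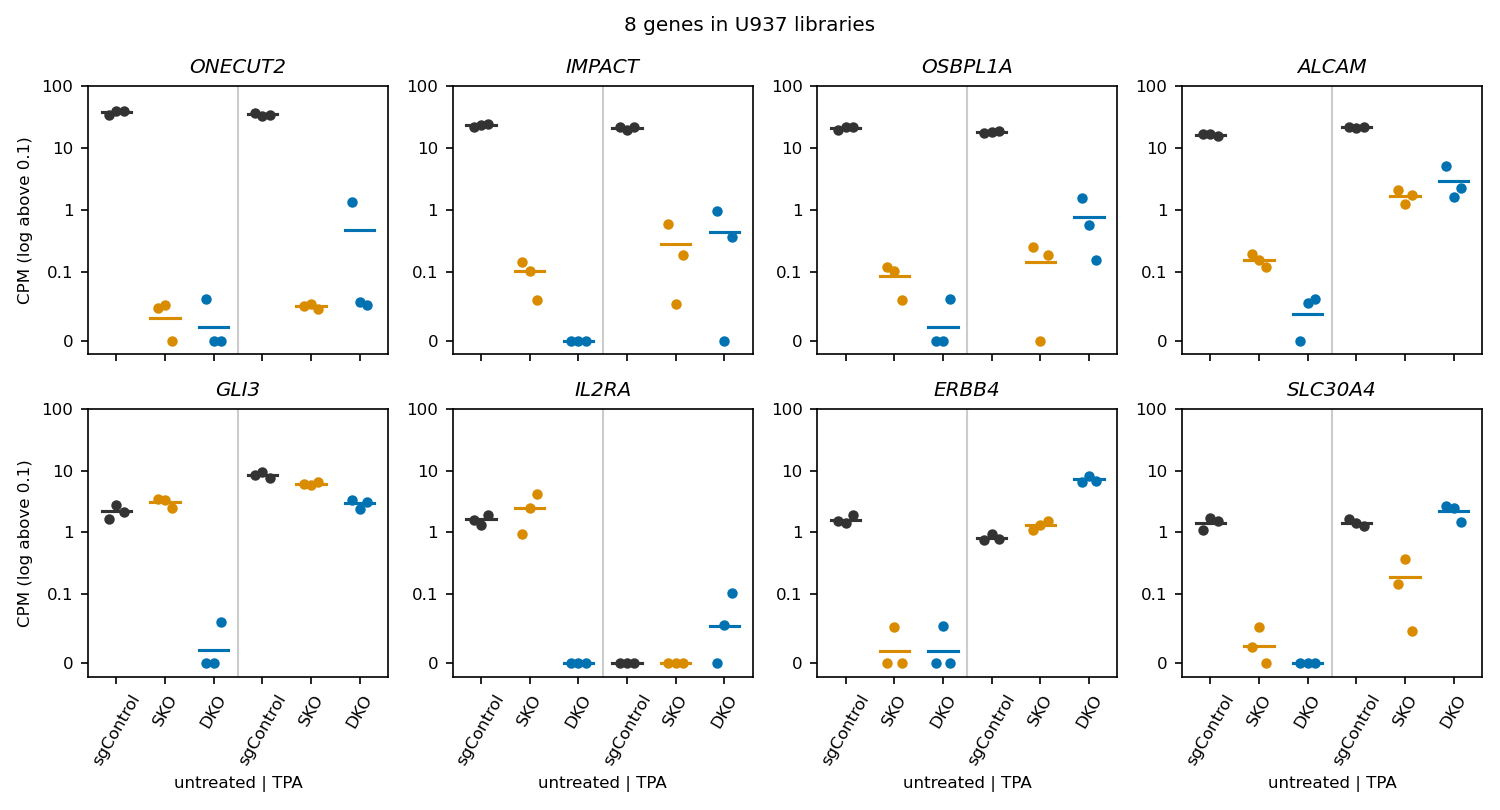
CPM of 8 of the genes in each U937 library (points) with the group mean (line), on an axis that is logarithmic above 0.1 CPM, for untreated and TPA-treated libraries. ONECUT2, IMPACT, OSBPL1A and ALCAM are lower in SKO and DKO than in sgControl, with and without TPA. GLI3 and IL2RA are low without TPA in DKO but not in SKO. ALCAM, GLI3, ERBB4 and SLC30A4 are above 1 CPM in all DKO libraries under TPA.

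Most of the 39 genes were near 0 in the single knockout too. Counted with the same limit of 5 reads over 3 libraries, 21 of 39 were off in untreated U937 SKO, where 0.253% of the expressed genes (28 of 11065) were off. With a looser measure chosen after the values were seen, 30 of 39 were under 10% of the control mean, against 0.777% of expressed genes. The 9 others were TERT, ADAM19, MAN1A1, AC110781.3, GLI3, PSPHP1, IL2RA, SHTN1 and SLITRK5. Only GLI3, IL2RA, PSPHP1 and ADAM19 averaged 1 CPM or more in SKO, at 3.1, 2.52, 2.5 and 1.38 CPM. SKO and the libraries that chose the genes have the same controls, so these values carry no test.

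On some autosomes the share of the 39 genes differed from that of the expressed genes. Chromosome 18 held 8 of the 39 (20.5%) and 1.47% of the expressed genes, which makes 4.91% of the 163 genes expressed from that chromosome. They are APCDD1, PRELID3A, GATA6, OSBPL1A, IMPACT, GAREM1, ONECUT2 and TNFRSF11A, and they include the 3 genes with the highest control level of the 39 (ONECUT2, IMPACT and OSBPL1A). Chromosome 7 held 5 (12.8% against 5.12%), namely AC110781.3, GLI3, PSPHP1, GTF2IRD1 and DPY19L2P2. Chromosomes 4, 8, 14, 20 and 21 held none. Chromosome shares were looked at after the genes were known and are given without a test. How other sets of 39 genes, or genes with similarly low control levels, are spread was not computed.

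**Figure D3:**
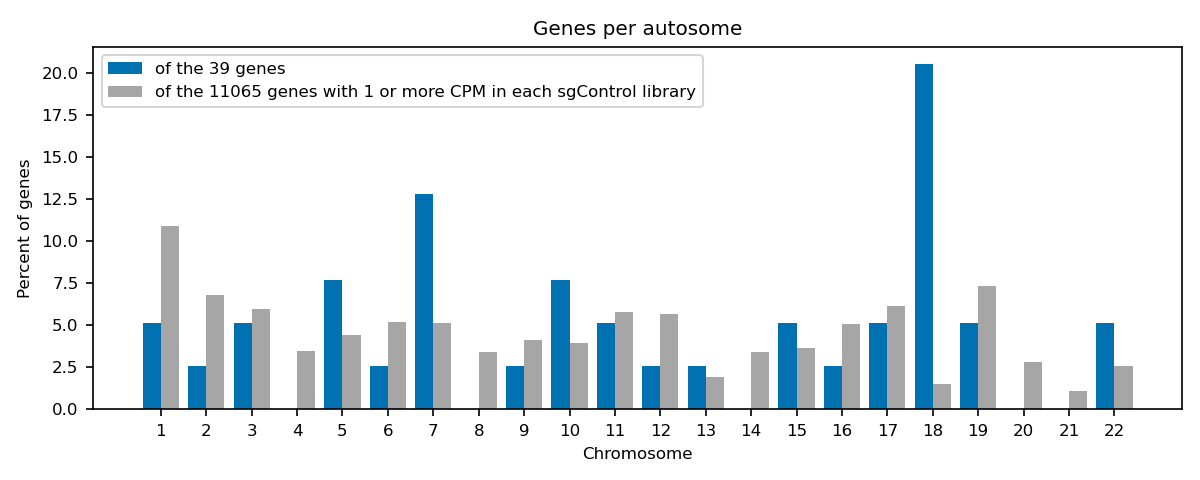
Percent of the 39 genes (blue) and of the 11065 expressed genes (grey) on each autosome. Chromosome 18 holds 20.5% of the 39 genes and 1.47% of the expressed genes.

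By distance between transcription starts, 4 of 39 genes (10.3%) had another of the 39 within 500 kb. How often other sets of 39 genes have such neighbours was not computed. OSBPL1A (chr18:24162045-24397880, reverse strand) and IMPACT (chr18:24426634-24453531, forward strand) point away from each other with starts 28.75 kb apart. RP11-43F13.3 (chr5:987180-997308) and TERT (chr5:1253147-1295068), both on the reverse strand, start 297.8 kb apart. No other expressed gene has its position between the members of either pair. At 2000 kb the count was 6, with APCDD1 and PRELID3A added, and at 5000 kb it was 9, of which 7 lie on chromosome 18.

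Around IMPACT and OSBPL1A the other expressed genes still had RNA in untreated DKO. TTC39C was at 43.5 CPM in sgControl and 40.3 in DKO, and RIOK3 at 82.5 and 77.8. SS18 was at 122 and 62.1 CPM, TAF4B at 46.9 and 29.2, and TMEM241 at 14.8 and 6.25. NPC1, the cholesterol transporter of lysosomes, was at 114 CPM in sgControl and 1120 in DKO, 840 kb from IMPACT. Around PRELID3A, genes near 0 and genes with RNA in DKO lay within 500 kb of each other. TUBB6, a beta-tubulin 100 kb from PRELID3A, was at 88.4 CPM in the controls against 0.333 with SKO and 0.658 with DKO, and SPIRE1, an actin nucleator whose start lies 250 kb away, was at 11.4, 0.239 and 0.12. AFG3L2, a mitochondrial protease that starts between TUBB6 and PRELID3A, was at 140 CPM in sgControl and 124 in DKO, and PSMG2, whose start is also 250 kb away, was at 54.4 and 52.5. TUBB6 and SPIRE1 had 68 and 12 reads in DKO, over the limit of 5, and so are not among the 39. Under TPA, TUBB6 was at 85.1 CPM in the controls against 0.428 with SKO and 2.09 with DKO, and SPIRE1 at 17.5, 0.326 and 0.688. Other genes of chromosome 18 under 10% of control in DKO were CTIF, EPB41L3, GNAL and ZCCHC2, at 0.613%, 1.4%, 4.21% and 9.6%.

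**Figure D4:**
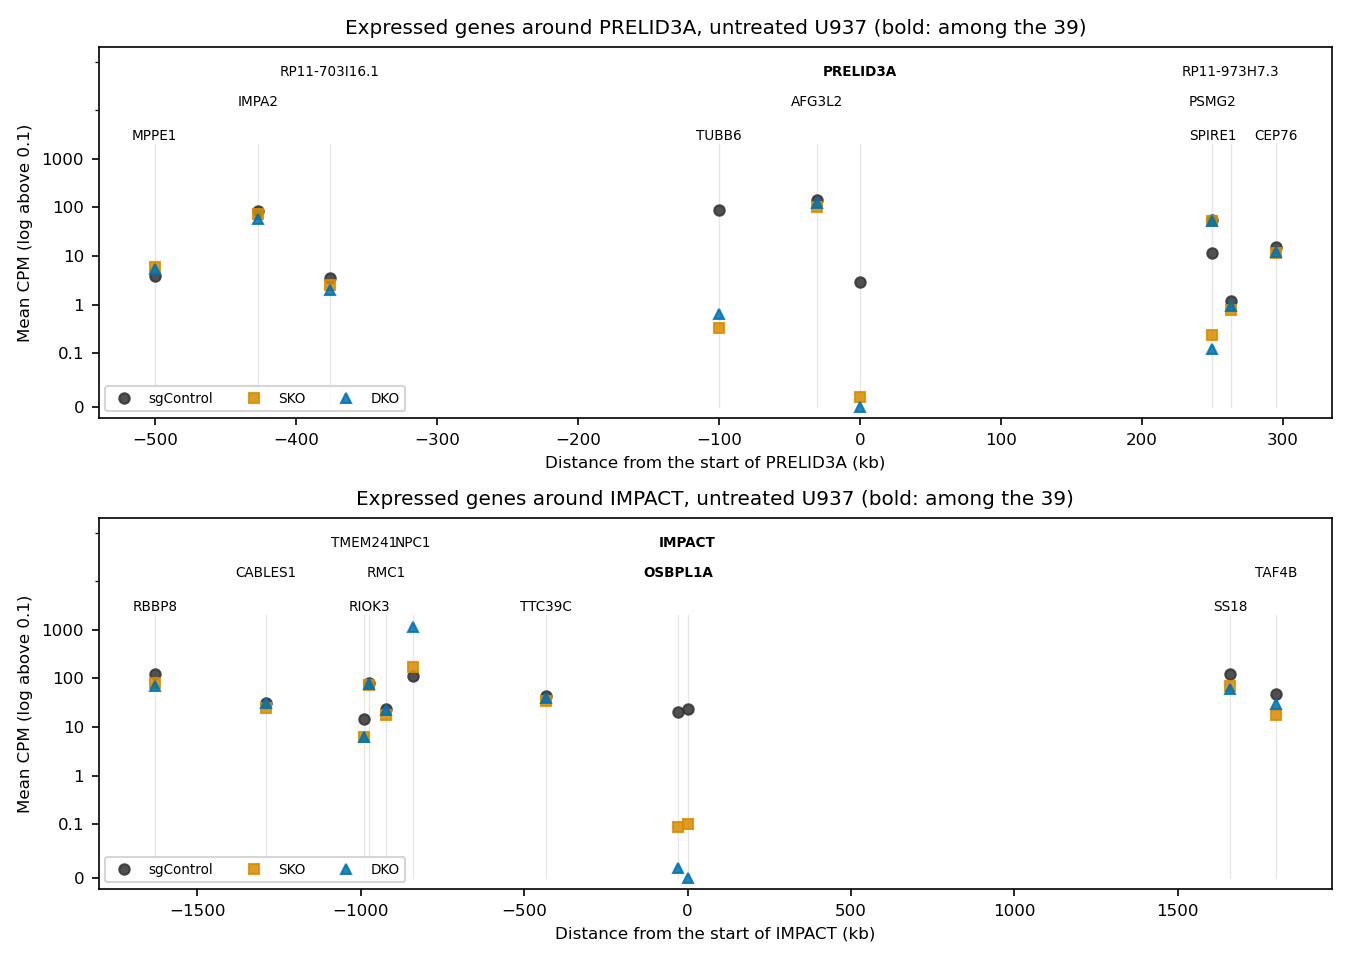
Mean CPM in untreated U937 sgControl, SKO and DKO (3 libraries each) of the expressed genes around PRELID3A (within 500 kb) and IMPACT (within 2000 kb), by distance of their starts. Names in bold are among the 39. TUBB6, SPIRE1 and PRELID3A lie below 1 CPM in SKO and DKO, and AFG3L2 and PSMG2 lie at 124 and 52.5 CPM in DKO.

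Over all 39 genes, the nearest expressed gene on each side was taken, which gave 74 flanking genes at a median distance of 114 kb. Their median level in untreated DKO was 87.8% of the control, 62 of 74 lay between 50% and 200%, and 3 lay under 10%. These were CPS1 beside ERBB4, SPIRE1 beside PRELID3A and ZCCHC2 beside TNFRSF11A. Under TPA, in libraries that had no part in the choice, 47 of the 74 were lower and 16 higher in DKO than in sgControl, and 5183 and 3759 of 11017 expressed genes that are not among the 39 (edgeR's quasi-likelihood test, Benjamini-Hochberg adjusted p under 0.05). Flanking genes were chosen after the 39 were known. On chromosome 18, 115 of 227 other genes tested (50.7%) were lower and 57 higher in the same contrast. On chromosome 7, 423 of 840 (50.4%) were lower and 177 higher, and of all genes tested 36.5% were lower.

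The TPA-treated U937 libraries had no part in the choice of genes. They may come from the same cells or clones as the untreated libraries, so a low state under TPA is not independent of the choice. In sgControl under TPA, 29 of 39 were at a mean of 1 CPM or more and 1 of 39, IL2RA, was off, against 0.0271% of the genes expressed in untreated controls. In SKO under TPA 14 of 39 were off against 0.199%, and in DKO under TPA 9 of 39 were off against 0.117%. With the same limit of 5 reads the DKO count was 16 without replicate 1, 11 without replicate 2 and 15 without replicate 3. OGDHL, SLC22A31, TMEM132E, GATA6, GAREM1 and ZNF264 were off in untreated SKO and in both knockouts under TPA. Of 26 genes at 1 CPM or more in each sgControl library under TPA, 20 were under 10% of that control in SKO (0.705% of genes so expressed) and 21 in DKO (0.808%).

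In the test under TPA, 35 of the 39 genes passed the filter on low counts, and IL2RA, OGDHL, SLC22A31 and TERT did not. Between DKO and sgControl 29 of 39 were lower, where 36.5% of 16246 genes were lower, and 3 were higher, where 34.1% were higher. Between SKO and sgControl 30 of 39 were lower (24.6% of all genes) and 1 higher (25.8%). Both comparisons use the same 3 controls. Genes can pass the filter through the control group alone, so the counts are given against the 39 and not against the 35. Such genes could hardly be called anything but lower, so no excess over all genes is read from these counts. Of the 11017 expressed genes outside the 39, 5183 were lower and 3759 higher in DKO than in sgControl under TPA.

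ONECUT2 was at 36.7, 33.3 and 34.4 CPM in sgControl under TPA, at 0.0496, 0.0527 and 0.0464 in SKO and at 1.32, 0.0562 and 0.0523 in DKO. It fell by 5.94 on the log2 scale in DKO (SE 0.29, edgeR adjusted p = 1.53e-16), and 1 DKO library stood above the other 2. IMPACT was at 21.9, 19.5 and 21.7 CPM in sgControl, 0.595, 0.0527 and 0.186 in SKO and 0.947, 0 and 0.366 in DKO, and it fell by 5.33 in DKO (SE 0.32, edgeR adjusted p = 1.47e-14). OSBPL1A was at 17.4, 17.9 and 18.7 CPM in sgControl, 0.248, 0 and 0.186 in SKO and 1.58, 0.562 and 0.157 in DKO, and it fell by 4.32 in DKO (SE 0.28, edgeR adjusted p = 1.57e-13). For all 3 genes the control libraries lay above every knockout library. ONECUT2 and OSBPL1A passed the filter on low counts through the sgControl libraries alone, so nothing is read from their calls.

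ADCY6 was at 7.39, 5.77 and 6.84 CPM in sgControl under TPA, with 775 reads in all, and had no read in the 3 DKO libraries. ZNF264 had 180 reads in sgControl and none in DKO, and GAREM1 had 390 and 5. TMEM132E had 144 reads in sgControl and 2 in each knockout. All 4 were called lower by the edgeR test, but they passed the filter on low counts through the sgControl libraries alone, where they were high. Their reads are given as a description, and nothing is read from these calls. The fitted fold changes of these 4 genes are no bounds, since DKO had almost no reads. In SKO, RP11-43F13.3, APCDD1 and GATA6 fell from 350, 240 and 118 reads in sgControl to 0, GTF2IRD1 from 423 to 2 and ONECUT2 from 4056 to 6. OGDHL, SLC22A31 and IL2RA also had 0 reads in SKO and were not tested.

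5 of the genes were above 1 CPM in DKO under TPA although they had at most 4 reads in untreated DKO. ERBB4 was at 0.754, 0.933 and 0.778 CPM in sgControl, 1.09, 1.32 and 1.53 in SKO and 6.45, 8.32 and 6.8 in DKO, with no overlap between the 3 groups. It rose by 3.35 on the log2 scale in DKO (SE 0.2, edgeR adjusted p = 1.65e-14) and by 0.75 in SKO (SE 0.23, edgeR adjusted p = 0.00725). SLC30A4 was at 1.63, 1.42 and 1.28 CPM in sgControl, 0.149, 0.369 and 0.0464 in SKO and 2.68, 2.5 and 1.49 in DKO. SYN2 was at 0.929, 0.81 and 1.28 CPM in sgControl and 1.34, 1.55 and 1.81 in DKO. These rises passed the test (edgeR adjusted p = 0.0228 for SLC30A4 and 0.0154 for SYN2), but the DKO libraries of SLC30A4 overlapped the controls, and each lost the call when 1 library was left out. For SYN2 this held without sgControl replicate 2 (0.73) or DKO replicate 3 (0.74), against 0.87 with all libraries. For SLC30A4 it held without sgControl replicate 2 (0.82) or 3 (0.75) or DKO replicate 1 (0.7) or 2 (0.75), against 0.84 with all libraries.

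GLI3 and ALCAM, the other 2, stayed below the controls. GLI3 was at 8.39, 9.33 and 7.51 CPM in sgControl, 6.03, 5.9 and 6.61 in SKO and 3.37, 2.39 and 3.14 in DKO, 3 ranges that did not overlap, and it fell by 1.28 in DKO (SE 0.14, edgeR adjusted p = 5.19e-09). ALCAM was at 21.7, 21.3 and 21.6 CPM in sgControl, 2.13, 1.26 and 1.72 in SKO and 5.08, 1.6 and 2.25 in DKO, and it fell by 2.62 in DKO (SE 0.2, edgeR adjusted p = 4.23e-12). NKAIN1, with 0.611 ± 0.13 CPM in DKO and 0.74 ± 0.119 in sgControl under TPA (n = 3 each), SLITRK5 and ARRDC4 did not pass the test in DKO. Of genes with more than 5 reads in DKO under TPA, the next by level were OSBPL1A, NKAIN1, SLITRK5, ONECUT2 and ALDH3A2, at 0.766, 0.611, 0.528, 0.475 and 0.447 CPM.

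Set against SKO under TPA, 14 of the 39 were higher in DKO (31.3% of all genes) and 4 were lower (32.4%). With only these 2 groups in the fit, 13 of the 39 passed the filter on low counts, 4 were higher (SLC30A4, NKAIN1, ERBB4 and ALCAM) and 4 were lower (PSPHP1, SHTN1, MAN1A1 and GLI3). The other 10 higher calls were not made there. ERBB4 was higher in DKO by 2.6 on the log2 scale (SE 0.18, edgeR adjusted p = 1.23e-12). SLC30A4 and NKAIN1 had 248 and 68 reads in DKO and 22 and 6 in SKO. In the fit of 2 groups they passed the filter through DKO alone, so nothing is read from their calls. GTF2IRD1, RP11-43F13.3 and APCDD1 had 22, 10 and 6 reads in DKO and 2, 0 and 0 in SKO, and they entered the fit of all 3 groups through the sgControl libraries, so nothing is read from their calls. PSPHP1 was at 0.105, 0 and 0.0523 CPM in DKO against 0.893, 1.53 and 1.23 in SKO. SHTN1 and MAN1A1 averaged 0.123 and 0.29 CPM in DKO and 0.858 and 1.66 in SKO. In the fit of 2 groups PSPHP1, SHTN1 and MAN1A1 passed the filter through SKO alone, so nothing is read from their calls. GLI3 had a log2 difference of DKO from SKO of -0.91, with means of 2.97 and 6.18 CPM (edgeR adjusted p = 3.02e-06). DKO replicate 1 held the highest value of the 3 DKO libraries for 23 of 39 genes, against 6 and 7 for the other 2, and without it 9 of 39 were higher than in SKO.

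Other features moved with DKO under TPA. The 13 mitochondrially encoded genes summed to 22400 to 23200 CPM in DKO, 43400 to 46300 in SKO and 50600 to 51600 in sgControl. The 5 megakaryocyte markers summed to 22.7 to 23.4 CPM in DKO and 1.38 to 2.53 in sgControl, with 1 of 5 at 1 CPM or more in each and GP9 at 0 reads in both. Of the 22 genes of the H3K9 and DNA methylation machinery, 16 were lower and 3 higher in DKO, and 9 lower and 4 higher in SKO. The part of these features in the values above was not tested. In untreated U937, mitochondrial reads summed to 46500 to 49900 CPM in DKO and 51900 to 56600 in sgControl.

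**Figure D5:**
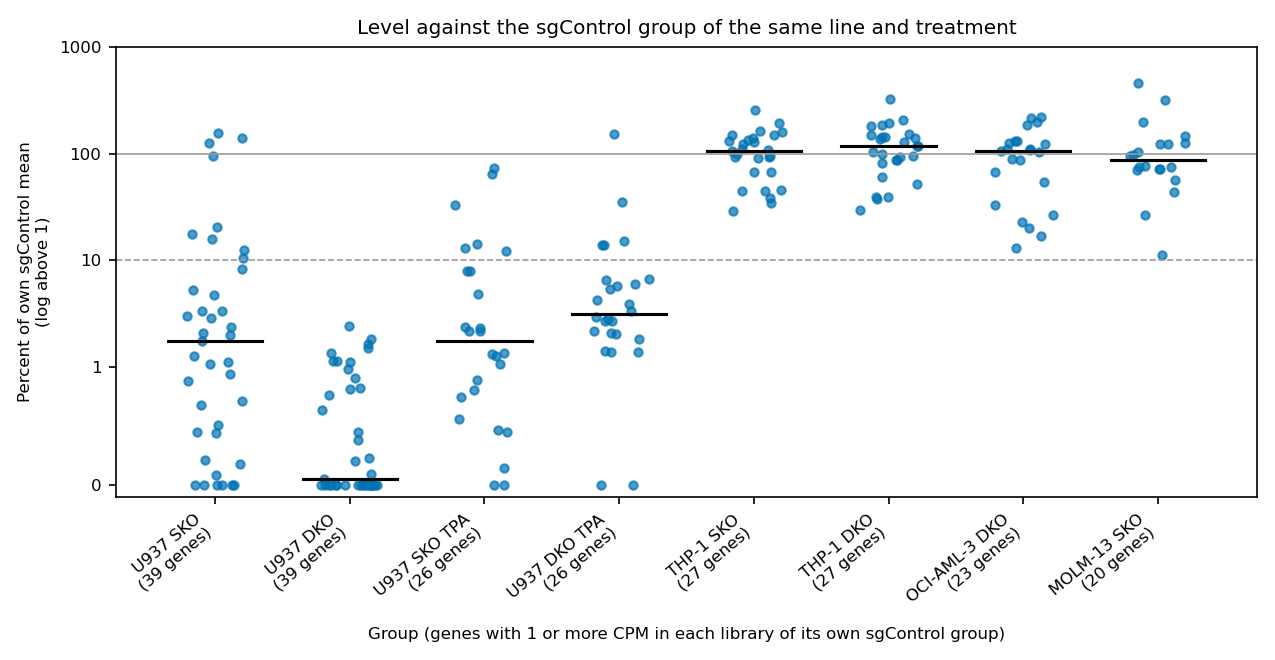
Mean level of the genes as a percent of the sgControl mean of the same line and treatment (points, with the median as a bar), for genes with 1 CPM or more in each library of that control, on an axis that is logarithmic above 1%. In the 4 U937 groups most points lie under 10% (dashed), and in THP-1, OCI-AML-3 and MOLM-13 none does.

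Outside U937 most of the genes had RNA in the knockouts too. In THP-1, 1 of 39 was off in sgControl (0.75% of the genes expressed in U937), 2 in SKO (0.786%) and 4 in DKO (0.524%). OCI-AML-3 had 8 off in sgControl (1.8%) and 7 in DKO (1.78%), and MOLM-13 had 8 off in sgControl (2.07%) and 9 in SKO (2.15%), where off means no more than 3 reads over 2 libraries. Of the genes at 1 CPM or more in each control library of the line, 0 of 27 were under 10% of that control in THP-1 SKO (0.343% of genes so expressed) and 0 of 27 in THP-1 DKO (0.276%). The counts were 0 of 23 in OCI-AML-3 DKO (0.319%) and 0 of 20 in MOLM-13 SKO (0.29%), and the lowest single values were 13.2% and 11.2%. TMEM132E had no more than 8 reads in any group outside U937.

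IMPACT, which had almost no reads in the U937 knockouts, was at 59.3 ± 4.73 CPM in the THP-1 controls against 80.1 ± 2.64 with SKO and 70.3 ± 1.14 with DKO (n = 3 each). It was at 41.6 ± 3.52 CPM in OCI-AML-3 sgControl and 44.7 ± 5.93 in DKO, and at 44.1 ± 0.856 in MOLM-13 sgControl and 45.3 ± 3.71 in SKO (n = 2 each). ALCAM was at 220 ± 6.62, 206 ± 6.56 and 193 ± 1.75 CPM in the THP-1 groups in the same order, and OSBPL1A at 50.5 ± 0.974, 66.8 ± 1.58 and 70.8 ± 1.21. ONECUT2 rose in THP-1 DKO by 0.68 (SE 0.06, edgeR adjusted p = 1.44e-10). It fell in OCI-AML-3 DKO by 1.61 (SE 0.07, edgeR adjusted p = 3.2e-24) and in MOLM-13 SKO by 1.84 (SE 0.33, edgeR adjusted p = 1.06e-05). The difference among these 3 lines was not tested, and the genotype is not the same in all.

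The counts of genes called in the other lines are given beside the share of all genes called. In THP-1 DKO 9 of 39 were lower (33.7% of genes tested) and 13 higher (31.9%), and in THP-1 SKO, which has the same controls, 9 were lower (22.8%) and 13 higher (20.6%). In OCI-AML-3 DKO 10 of 39 were lower (25.6%) and 9 higher (24.3%), and in MOLM-13 SKO 11 were lower (32.2%) and 9 higher (31.8%). The filter passed 34 of the 39 in THP-1, 28 in OCI-AML-3 and 25 in MOLM-13. Set against all 39, these counts are near or below the background shares, except for the 13 higher in THP-1 SKO. The background shares are of genes tested, whereas genes of the 39 that failed the filter count here as not called. Against the genes tested alone the shares would be higher, so neither an excess nor a lack is read from these counts. Without each library in turn the OCI-AML-3 counts were 6 to 9 lower and 4 to 7 higher.

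ADAM19 rose in THP-1 DKO by 3.19 on the log2 scale (SE 0.27, edgeR adjusted p = 8.14e-12), from 0.465, 0.348 and 0.449 CPM to 3.75, 4.81 and 4.85. It was the largest rise among the 39 there, followed by AC110781.3 (1.58), APCDD1 (1.48), RP11-43F13.3 (1.45) and ARRDC4 (0.85). OGDHL, SLITRK5, TERT, SHTN1 and TNFRSF11A had the largest falls in THP-1 DKO, by 1.95, 1.62, 1.57, 1.57 and 1.15. In THP-1 SKO, AC110781.3 (1.49), NT5C1A (1.32), ADAM19 (1.17), RP11-43F13.3 (1) and APCDD1 (0.94) rose most, and OGDHL, ZNF541, TNFRSF11A, ADCY6 and SHTN1 fell by 1.81, 1.61, 1.56, 1.4 and 1.2. All passed edgeR's test, with adjusted p of at most 0.028 in DKO and 0.021 in SKO, and ZNF541 missed the threshold without SKO replicate 3.

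TERT fell in all 4 comparisons outside U937. It was at 2.61, 2.7 and 2.34 CPM in THP-1 sgControl, 1.21, 1.33 and 0.915 in SKO and 0.931, 0.938 and 1.1 in DKO. In OCI-AML-3 it went from 11.7 and 11.9 CPM in sgControl to 1.76 and 2.25 in DKO, and in MOLM-13 from 5.9 and 5.76 to 0.778 and 0.523 in SKO, and in none of the 3 lines did control and knockout libraries overlap. The edgeR log2 changes were -1.17 in THP-1 SKO (SE 0.24, adjusted p = 0.000146) and -1.57 in THP-1 DKO (SE 0.25, adjusted p = 2.63e-06). They were -2.55 in OCI-AML-3 DKO (SE 0.15, edgeR adjusted p = 1.12e-19) and -3.11 in MOLM-13 SKO (SE 0.23, edgeR adjusted p = 2.77e-13). The THP-1 comparisons have the same controls. Exons of TERT overlap those of CTD-3080P12.4. In U937 under TPA, where TERT was at 0.274 ± 0.112 CPM in sgControl (n = 3), its DKO effect differed from that in THP-1 by -1.93 (edgeR adjusted p = 0.0737) and from that in OCI-AML-3 by -0.88 (edgeR adjusted p = 0.455), and neither passed.

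In OCI-AML-3 DKO the largest falls among the 39 were those of ZDHHC21 (by 2.92, edgeR adjusted p = 1.02e-16), DPY19L2P2, TERT, RP11-43F13.3 and MAN1A1 (by 2.13, edgeR adjusted p = 6.42e-23). ZDHHC21 went from 6.53 and 6.04 CPM to 0.882 and 0.773, and MAN1A1 from 24.9 and 26.5 to 6.01 and 5.66. SYN2, EMID1, APCDD1, GAREM1 and NT5C1A rose, APCDD1 from 47.8 and 47.5 CPM to 105 and 101 (log2 change 1.12, SE 0.06, edgeR adjusted p = 6.51e-21). In MOLM-13 SKO the rises were led by IL2RA, from 0.38 and 0.338 CPM to 11.4 and 11.1 (log2 change 5.03, SE 0.2, edgeR adjusted p = 6.88e-20), ARRDC4, from 17.2 and 15.2 to 72.7 and 76.7 (2.27, SE 0.06, edgeR adjusted p = 1.66e-24), MAN1A1, SYN2 and SLC22A31. The calls of DPY19L2P2, RP11-43F13.3, SYN2, GAREM1 and NT5C1A in OCI-AML-3 and of ERBB4 and SYN2 in MOLM-13 were each lost when 1 of the 4 libraries was left out. After TERT and ONECUT2 the falls were those of ERBB4, PRELID3A and WT1, the last from 87 and 87.1 CPM to 47.6 and 50. Myeloid markers summed to 2040 to 2110 CPM in MOLM-13 sgControl and 9290 in each SKO library, and 942 to 984 and 2060 in OCI-AML-3 sgControl and DKO. Their part in these values was not tested.

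The difference of the DKO effect between U937 under TPA and the other lines was tested in joint fits, of which that with THP-1 joins 2 count tables. Only the U937 libraries in these fits are labelled as treated with TPA, so line and treatment cannot be told apart. In the following, U937 stands for U937 under TPA. It was lower in U937 than in THP-1 for 30 of 39 genes (31.1% of 18730 genes tested) and higher for 2 (29.5%), ERBB4 and SLITRK5, whose sign turned when 1 library was left out. It was lower in U937 than in OCI-AML-3 for 23 of 39 (22.9% of 18627) and higher for 1 (25.4%), SLC30A4, whose call was lost when 1 library was left out. Both tests use the same U937 libraries, and 38 of 39 genes were tested in each. The 39 were chosen as off in untreated U937 DKO, and nothing was asked of the other lines. The counts of lower effects are therefore not independent of the choice, and no excess is read from them. Genes near 0 in the other line, such as CLDN5 (8 and 9 reads in THP-1 sgControl and DKO), could enter through U937 sgControl alone. For IMPACT the difference was -5.33 on the log2 scale against THP-1 (SE 0.26, edgeR adjusted p = 2e-15) and -5.33 against OCI-AML-3 (SE 0.29, edgeR adjusted p = 3.11e-15). For GLI3, whose level outside U937 was at most 1.05 CPM on average, the difference did not pass the test against either line (edgeR adjusted p = 0.485 and 1).

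Across the 13 group means, the genes outside the 39 whose log2(CPM + 1) most resembled the average of the 39 were C11orf49 (Pearson r = 0.984), RP11-246K15.1 (0.982), TUBB6 (0.956), ZNF271P (0.948) and DNAJA4 (0.942). The groups share lines and controls, and the values are a description. C11orf49 was at 7.32 CPM in untreated U937 sgControl, 0.246 in SKO and 0.268 in DKO, and RP11-246K15.1 at 10.1, 0.00983 and 0.0961. TUBB6 and ZNF271P are on chromosome 18. Summed over the 39 genes, the level was 194.8 CPM in untreated U937 sgControl, 12.9 in SKO and 0.4342 in DKO, and 682.1, 721.2 and 777.4 in the THP-1 groups.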

How the data were processed

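Gene-level read counts of 35 libraries were used as the authors deposited them, in 2 tables of whole-number counts over the same 59428 gene rows. The submitters' processing notes name fastp 0.23.4, STAR 2.7.11b, Subread 2.0.6 and the hg38 build. Per the file headers, the untreated U937 and THP-1 libraries were counted with featureCounts 2.0.6 and GENCODE 38 by gene name, without strand, with reads of a pair counted singly and no option set for reads that map to several places. The other table holds OCI-AML-3, MOLM-13 and the U937 libraries under TPA, and its counting command is not given in the sources used here. Tests were run within a table, except the difference between U937 under TPA and THP-1, which joins both, and levels set side by side across tables are less firm.

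CPM were computed from the counts and the column totals. Counts were tested with edgeR 4.0.16 in R 4.3.3 (filterByExpr, TMM, quasi-likelihood test, Benjamini-Hochberg over all genes tested, threshold 0.05), with 1 fit for each line and treatment. The SE is the size of the log2 change divided by the square root of F. The scripts were checked on simulated counts. The genes described, their lists and roles were chosen with earlier results of these data known. Genes named are the 15 highest in the controls, close neighbours, up to 5 called per direction and comparison, those with most reads in DKO under TPA, those next to each threshold and the 5 most similar others. The percent of own control, flanking genes, chromosome shares, distances over 1 Mb, genes of chromosome 18 outside the 39, the library with the highest value and the printed promoters were chosen after seeing the data. Alternatives were other limits, size factors of DESeq2 1.42.0 and its Wald test, no filter, the replicate block, only the compared groups and leaving out each library. One more, chosen after seeing the data, left out the 2 libraries coded S0_L001 among the 6 that chose the genes. Depth was 31985767 to 61178704 counted reads. Floors cover counting error only. All replicate pairs differed by more than sampling noise (chi-square per degree of freedom at least 2.97).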

Additional observations from a re-analysis of the deposited data

Results flagged for a closer look

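The effect of DKO differed between U937 under TPA and another line by the joint edgeR test for the following results. The other lines had no TPA label, so line and treatment cannot be told apart in them. The 39 genes were chosen as off in untreated U937 DKO, so lower effects in U937 are not independent of the choice. Against THP-1, 30 of the 39 genes had a lower and 2 a higher effect in U937. The fitted differences on the log2 scale were -10.54 for ADCY6, -9.26 for ZNF264, -7.8 for ADAM19, -6.58 for ONECUT2 and -6.41 for APCDD1, and 3.89 for ERBB4 and 1.56 for SLITRK5. ADCY6 and ZNF264 had no read in DKO under TPA and APCDD1 had 6, so their values depend on the prior count and are no bound. ERBB4 had 8 reads in THP-1 sgControl, all in replicate 3, and 4 in DKO, and without that control library its difference was -0.2. SLITRK5 fell in THP-1 DKO from 27.3 to 10.2 CPM and did not pass the test in U937 under TPA. Its difference was -0.08 without U937 DKO TPA replicate 3.

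Against OCI-AML-3, 23 of the 39 genes had a lower and 1 a higher effect in U937. The fitted differences were -11.16 for ADCY6, -9.23 for ZNF264, -7.37 for OGDHL, -6.78 for GAREM1 and -6.34 for EMID1, and 1.15 for SLC30A4. OGDHL had no read in DKO under TPA and 47 in its sgControl, and GAREM1 had 5 in DKO, and their values are no bounds either. The call of SLC30A4 was lost without either of 2 sgControl or 2 DKO libraries of U937 under TPA, and without replicate 2 of either OCI-AML-3 group.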

How the results depend on the processing

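The number of genes moved with the limits that define it. It was 63 at 0.5 CPM and 20 at 2 CPM in each control library, and 19 at 0 reads in DKO. It was 55 at 10 reads, 39 with TMM-scaled CPM and with all chromosomes, 40 to 51 without each library in turn and 49 without the 2 libraries coded S0_L001. Genes with a close neighbour numbered 2 at 250 kb and 4 at 1 Mb. With a limit of 10 reads, 4 genes were off in THP-1 sgControl, 22 in U937 SKO TPA and 16 in U937 DKO TPA, and with 7 reads 14 were off in MOLM-13 SKO. Without each library in turn, 2 were off in THP-1 sgControl and 11 to 16 in U937 DKO TPA. Promoters with a CpG ratio of at least 0.75 numbered 17.

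Of the counts by test, genes higher in TPA DKO than in SKO numbered 4 with only these 2 groups in the fit and 9 to 17 without each library. MOLM-13 SKO had 7 lower by DESeq2. Without each library, TPA DKO against sgControl gave 1 to 3 higher, OCI-AML-3 DKO 6 to 9 lower and 4 to 7 higher, and the difference from THP-1 1 to 3 higher. For the difference from OCI-AML-3, higher was 0 without a filter and 0 to 1 without each library. The sign turned for ERBB4 (-0.2 to 4.51 without each library, lowest without THP-1 sgControl replicate 3) and SLITRK5 (-0.08 to 2.08, lowest without U937 DKO TPA replicate 3) in the difference from THP-1. The cause of these moves was not tested, except that fewer libraries and genes enter some fits.

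Replicate numbers did not pair the samples, since deviations of samples with the same number correlated between -0.0377 and 0.0584. With the replicate number as a block, ERBB4 in MOLM-13 SKO missed the threshold (-1.37, edgeR adjusted p = 0.051) and no other named gene lost its call. All counts stayed within 1.5 times, with 29 lower and 3 higher for DKO under TPA, 14 higher in THP-1 DKO and 10 lower in MOLM-13 SKO. Depth limits what is called off, since a floor of 3 reads is 0.049 to 0.0938 CPM in a single library.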
